A study of Mus musculus with 2 samples.

Results

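Genes of the neural crest and of autonomic neurons were followed in ureter explants in which the secretion of WNT proteins was blocked. The 8 genes were *Sox10*, *Ngfr*, *Phox2a*, *Elavl3*, *Elavl4*, *Tubb3*, *Stmn2* and *Th*, taken by name from the 29924 gene names on the array. The rule uses no measured value, but the genes were picked with earlier results of these data known. *Sox10* and *Ngfr* were treated as crest and glial genes and the other 6 as neuronal genes. Ureters of E11.5 wildtype embryos of the NMRI mouse strain were cultured as explants over 18 h without serum. One group received 10 µM IWP-2, a small molecule that inhibits the acyltransferase PORCN and thereby the release of WNT ligands, and the control group received the solvent DMSO alone (2:1000). Each group consisted of 2 pools of ureters, and each pool of treated ureters was hybridised with a pool of controls on 1 two-colour Agilent array. The dyes were swapped between the 2 arrays, so that the treated pool carried AlexaFluor647 on replicate 1 and AlexaFluor555 on replicate 2. The 2 arrays shared 1 slide and 1 scan.

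Neural crest cells leave the dorsal neural tube, migrate through the trunk and give rise to the neurons and glia of the autonomic ganglia. The transcription factor SOX10 maintains crest progenitors and glia, and most neuronal daughters lose it. Neurons are then specified by factors such as PHOX2A, take on general neuronal proteins such as ELAVL RNA-binding proteins and neuronal tubulin, and acquire the enzymes of their transmitter. WNT proteins are known to act on crest cells in the embryo, and autonomic neurons and glia lie along the ureter and in its wall later in life. RNA of whole explants was measured here, so that fewer cells of a type and less RNA per cell cannot be told apart.

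All 6 neuronal genes gave a higher signal in IWP-2-treated ureters than in controls on both arrays (4 of 6 when arrays were centred on their median in place of loess), by a mean of 1.15-fold to 1.29-fold, whereas the crest and glial genes *Sox10* and *Ngfr* were higher on replicate 1 only. None of the 8 differences passed a false discovery rate (FDR) of 0.05 in limma, a linear model of the log2 ratios adjusted over all 20119 genes tested. The count was 0 of 8 members in either direction, against a background of 0.76% of all genes higher and 1.23% lower at this threshold. At an unadjusted p under 0.05 in limma, 4 members were higher (*Elavl3*, *Elavl4*, *Tubb3* and *Stmn2*) and 0 were lower, against 8.8% and 4.77% of all genes. A signal higher on both arrays was found for 6 of the 8 members and for 28.5% of all genes, and a signal lower on both arrays for 0 members and 27.5% of all genes. The median change of the 8 members was 0.30 on the log2 scale (0.38 on replicate 1 and 0.26 on replicate 2), and the median of all genes was 0.00 (-0.01 and 0.02). The arrays correlated with r = 0.465 across genes, which are not independent replicates, and with r = 0.00673 when they were centred on their median in place of loess. The 2 arrays leave 1 residual degree of freedom per gene, so that the standard errors in limma rest mainly on a variance shared by all genes (5.78 prior degrees of freedom).

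The array carried 9 probes for the 8 genes, 2 of them for *Elavl4*, each printed in 4 spots. All 72 member spots were well above background in both channels, and 2 of them were marked as outliers and left out. The probes are 60 bases long, and none shared a stretch of 20 bases with any other probe on the array. The related genes *Elavl3* and *Elavl4* thus had separate probe sequences, while matches of the probes to other transcripts were not searched. In the mouse build mm9 of the array design, the *Sox10* probe lies at chr15:78985518-78985577 on the minus strand and the *Ngfr* probe at chr11:95430211-95430270 on the minus strand. The *Phox2a* probe lies at chr7:108971127-108971186 on the plus strand, and the *Th* probe at chr7:150078703-150078762 on the minus strand. The *Elavl3* probe is at chr9:21822471-21822530 on the minus strand, the *Tubb3* probe at chr8:125945850-125945909 on the plus strand and the *Stmn2* probe at chr3:8561545-8561604 on the plus strand. The brighter *Elavl4* probe lies at chr4:109877455-109877514 and the dimmer one at chr4:109878558-109878617, both on the minus strand. Exon annotation of this build was not used here.

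The last 30 bases of the probes for the crest factor *Sox10* and for the neuronal genes *Tubb3* and *Stmn2* are shown because they hold the hexamer AATAAA, the usual signal for cleavage and polyadenylation, in capitals:
Sox10: tccagcgataccttAATAAAgtacgtagct
Tubb3: acttAATAAAgttactgctgtctgtcagat
Stmn2: gatgAATAAAgaattggagttctgtgaact
The hexamer begins 16 bases before the end of the *Sox10* probe and 26 bases before the end of the *Tubb3* and *Stmn2* probes. It was found in 3 of the 9 member probes (33.3%) and in 4965 of the 39429 probes of the array (12.6%), searched on the strand of the probe. The last 30 bases of both *Elavl4* probes are shown next, since this gene was measured at a pair of places in its transcript.
Elavl4, brighter probe: tgtgtgtgtgtatgtgtacatataatataa
Elavl4, dimmer probe: ttaagatgaccattcgctcatttgaagaag

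**Figure D1:**
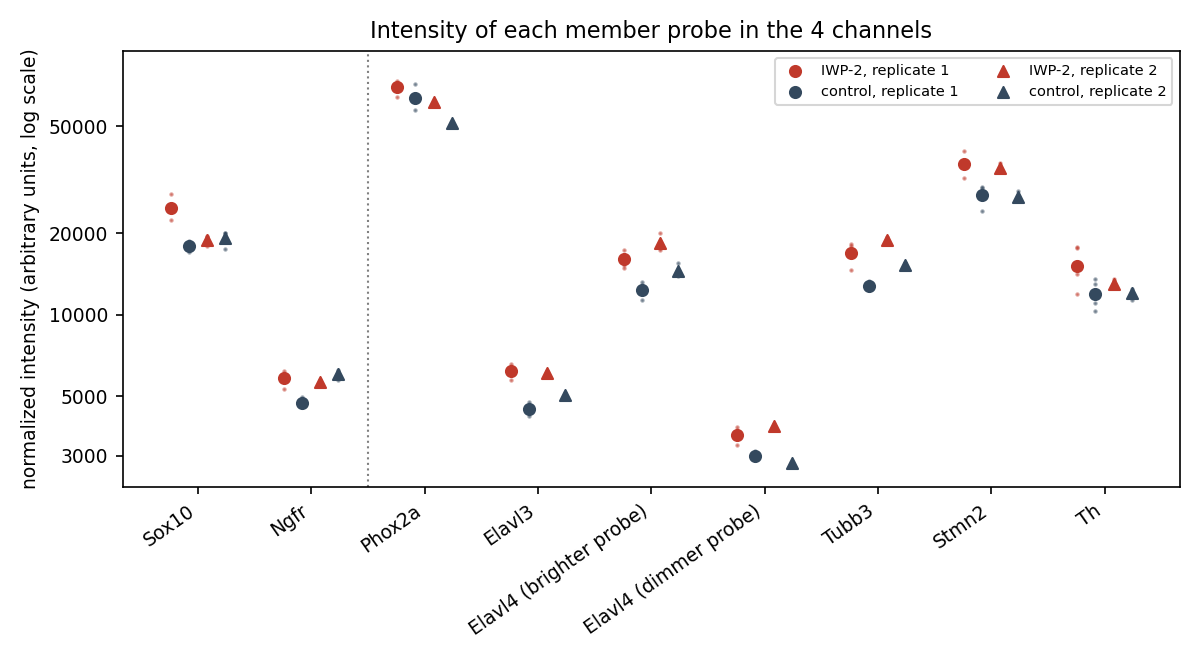
Normalized intensity (arbitrary units, log scale) of each of the 9 member probes in the 4 channels, with large symbols for the mean of the spots and small dots for single spots. Red marks IWP-2 and dark blue control, circles replicate 1 and triangles replicate 2, and the dotted line separates crest and glial from neuronal genes. For every neuronal probe red lies above blue of the same array, while for *Sox10* and *Ngfr* this holds on replicate 1 only.

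*Sox10*, the transcription factor of crest cells and glia, had a normalized intensity of 24775 in treated and 18000 in control ureters on replicate 1. On replicate 2 it had 18995 in treated and 19262 in control ureters. Intensities were not scaled between the arrays, so that pools are compared within each array. The treated pool lay above its control on replicate 1 and below it on replicate 2. The log2 change was 0.46 on replicate 1 and -0.02 on replicate 2, which gave a mean of 0.22±0.34 (SD, n = 2) and an adjusted p of 0.631 in limma. The SD between spots was 0.14 on replicate 1 and 0.04 on replicate 2, below the gap between the arrays.

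*Ngfr* encodes a neurotrophin receptor carried by crest cells and glia and also found on neurons and other cells. Its intensity was 5820 in treated and 4719 in control ureters on replicate 1, and 5640 in treated and 6045 in control ureters on replicate 2. Here, too, the treated pool lay above its control on replicate 1 and below it on replicate 2. The log2 change was 0.30 on replicate 1 and -0.10 on replicate 2 (mean 0.10±0.28, SD, n = 2; adjusted p 0.892 in limma). The arrays disagreed more on these genes than on most others: 6.92% of all genes tested had a larger SD between arrays than *Sox10* and 11.0% a larger one than *Ngfr*, and the median SD of all genes was 0.11.

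*Phox2a* encodes a homeodomain factor of autonomic and noradrenergic neurons. Its intensity was 69624 in treated and 63257 in control ureters on replicate 1, and 61318 and 51356 on replicate 2, where 3 spots remained. Each treated pool lay above the control of its own array. The log2 change was 0.14 and 0.26 on the arrays, with a mean of 0.20±0.08 (SD, n = 2; adjusted p 0.501 in limma).

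The general neuronal genes had the largest mean differences among the members. *Elavl3*, which encodes an RNA-binding protein of young neurons, had an intensity of 6182 in treated and 4489 in control ureters on replicate 1 and of 6096 and 5057 on replicate 2. Each treated pool was above the control of its array. Its log2 change was 0.46 and 0.27, with a mean of 0.37±0.14 (SD, n = 2; 1.29-fold; adjusted p 0.173 in limma).

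*Elavl4* encodes a related RNA-binding protein of neurons. Its brighter probe gave 16023 in treated and 12370 in control ureters on replicate 1 and 18376 and 14535 on replicate 2. Each treated pool exceeded the control of its array. The dimmer probe gave 3602 and 3004 on replicate 1 and 3884 and 2817 on replicate 2, again higher in the treated pool of each array. The mean log2 change was 0.36 with either probe (0.37 and 0.34 on the arrays for the brighter, 0.26 and 0.46 for the dimmer). Adjusted over the 26947 probes kept, p was 0.165 for the brighter and 0.181 for the dimmer probe in limma. None of the 9 member probes passed FDR 0.05 in this fit, against 0.831% of probes higher and 1.23% lower.

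*Tubb3*, which encodes a beta tubulin of neurons, had an intensity of 16876 in treated and 12757 in control ureters on replicate 1. On replicate 2 the values were 18982 in treated and 15256 in control ureters, so that the treated pool was higher on both arrays. The log2 change was 0.40 and 0.32 (mean 0.36±0.06, SD, n = 2; 1.28-fold; adjusted p 0.160 in limma).

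*Stmn2* encodes a regulator of microtubules in growing axons. It had an intensity of 36090 in treated and 27738 in control ureters on replicate 1 and of 34977 and 27293 on replicate 2. On each array the treated pool exceeded its control. The arrays were closest for this gene among the members, with log2 changes of 0.38 and 0.36 (mean 0.37±0.02, SD, n = 2; 1.29-fold; adjusted p 0.144 in limma).

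*Th* encodes tyrosine hydroxylase, the rate-limiting enzyme of catecholamine synthesis, and marks sympathetic neurons and chromaffin cells. Its intensity was 15208 in treated and 11938 in control ureters on replicate 1 and 13048 and 11995 on replicate 2. Each treated pool lay above the control of its array, by less on replicate 2. The log2 change was 0.35 and 0.12 (mean 0.24±0.16, SD, n = 2; 1.18-fold; adjusted p 0.427 in limma).

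**Figure D2:**
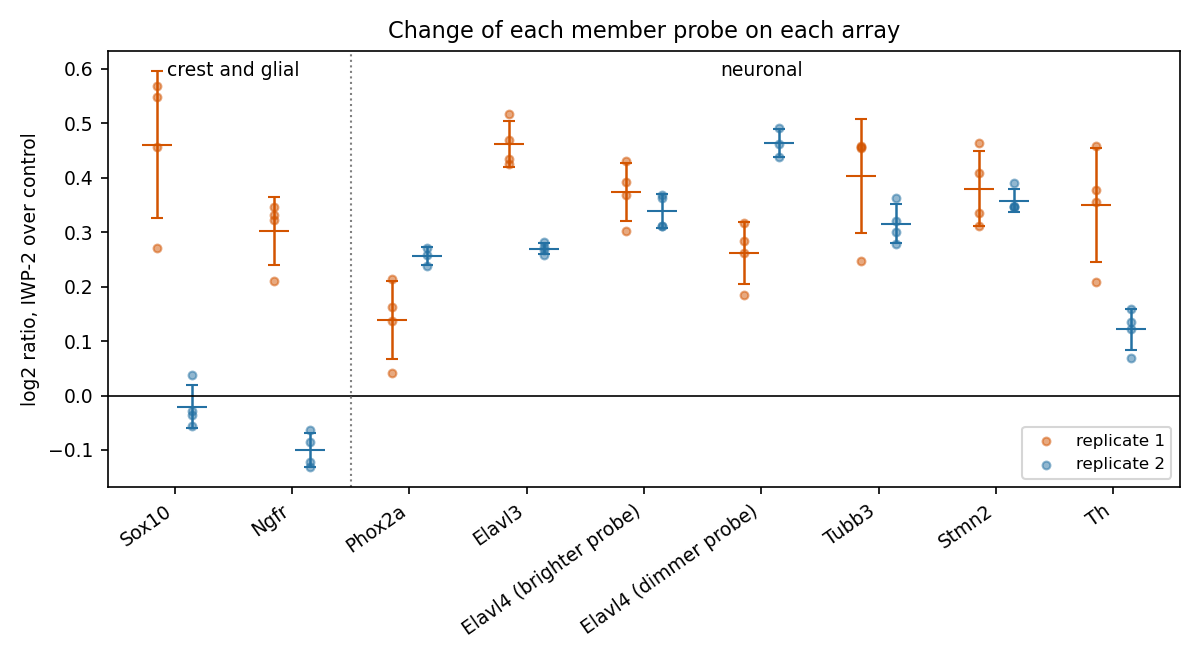
Log2 ratio of IWP-2 over control for each member probe on replicate 1 (orange) and replicate 2 (blue). Points are single spots, horizontal bars their mean, and vertical bars the SD between spots of 1 array, which is technical. With loess, all neuronal spots lie above 0, and on replicate 2 the *Sox10* spots lie around 0 and the *Ngfr* spots below it.

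To separate crest and glial from neuronal genes, the 2 sets were compared on each array. On replicate 1, all 8 spots of the crest and glial genes and all 28 spots of the neuronal genes had a ratio above 0. On replicate 2, this held for 1 of 8 crest and glial spots and for all 26 remaining neuronal spots. The crest and glial genes had a median log2 change of 0.38 on replicate 1 and of -0.06 on replicate 2, while the neuronal genes had 0.38 and 0.29. The neuronal median minus the crest and glial median was therefore -0.01 on replicate 1 and 0.35 on replicate 2. This difference was not tested, since over 2 arrays an exact two-sided sign-flip test cannot give a p below 0.5. When arrays were centred on their median instead of by loess, 4 of the 6 neuronal genes were higher on both arrays, against 20% of all genes. *Phox2a* (-0.22) and *Th* (-0.08) were below 0 on replicate 2 with this centring. The median of all genes was then 0.11 on replicate 1 and -0.14 on replicate 2. Relative to it, 5 of the 6 neuronal genes were higher on both arrays and *Phox2a* was not.

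**Figure D3:**
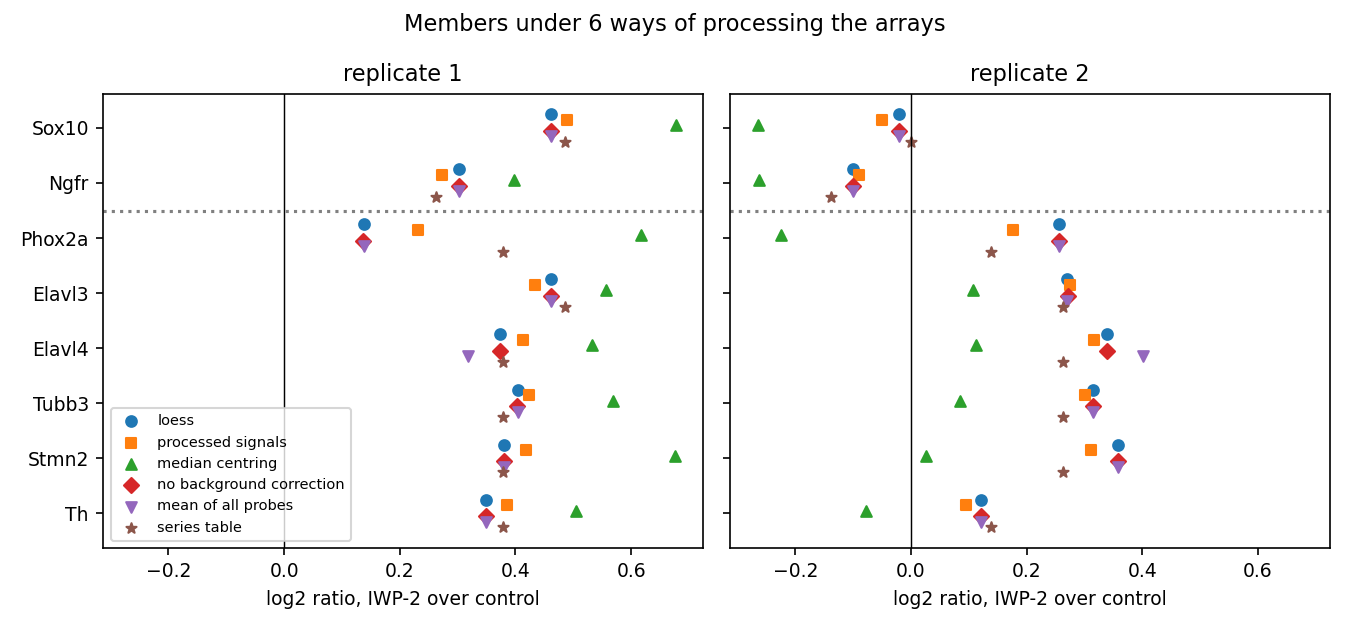
Log2 ratio of each member on both arrays under 6 ways of processing, which are loess, the processed signals of the scanner software, median centring, no background correction, the mean of all probes of a gene, and the deposited series table. On replicate 1 all values are above 0, and on replicate 2 *Sox10* and *Ngfr* are at or below 0 in all 6, while *Phox2a* and *Th* fall below 0 with median centring only.

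A filter modelled on that of the study, with a minimum intensity of 100 and a change of at least 2-fold on each of the 2 arrays, was applied with the added condition of the same direction. By this filter, 0 of 8 members passed. Of the 14549 genes bright enough for it, 0.0756% passed as higher and 0.344% as lower.

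Other genes of these cells were examined as lists. Among 15 further crest and glial genes, 9 were higher and 2 lower on both arrays, against 28.5% and 27.5% of all genes. Their median log2 change was 0.16 (0.29 on replicate 1 and 0.10 on replicate 2, all genes 0.00). At FDR 0.05 in limma, 2 of the 15 rose, among them *Tfap2b*, and 0 fell, against 0.76% and 1.23% of all genes. *Tfap2b*, which encodes a factor of crest cells and sympathetic neurons, rose by 0.64±0.09 (SD, n = 2; adjusted p 0.0343 in limma). The study also lists it among the factors raised on arrays of later ureters that lack mesenchymal *Ctnnb1*, a set rich in terms for kidney development. Its in situ hybridisation did not reliably detect *Tfap2b* in control or in such mutant ureters. Which cells carried the *Tfap2b* signal here was not tested. *Gfra3*, a receptor for the ligand artemin and among the brightest genes of the list, had a mean of 0.02. At an unadjusted p under 0.05 in limma, 6 of the 15 genes were higher and 0 lower, against 8.8% and 4.77% of all genes. *Erbb3*, the receptor through which glia respond to neuregulin, had 0.41 on replicate 1 and -0.13 on replicate 2, the same order of arrays as *Sox10*. *Erbb3* was singled out with its values in view and does not stand for the list. Of the 15 genes, 9 were higher on both arrays and 6 were not, and the list median was above 0 on each array.

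Of 10 further regulators of autonomic neurons, 7 were higher and 3 lower on both arrays (median 0.17), against 28.5% and 27.5% of all genes. *Insm1*, which encodes a zinc finger factor of neuronal and endocrine precursors, rose by 0.64±0.11 (SD, n = 2; adjusted p 0.0348 in limma). *Gata2* fell by 0.70 (SD 0.19, n = 2; adjusted p 0.0336 in limma) and *Isl1* by 0.61 (SD 0.09, n = 2; adjusted p 0.0373 in limma). GATA2 and ISL1 are factors of sympathetic neurons, and both genes are also expressed outside the nervous system of the embryo. By in situ hybridisation, the study found *Gata2* in the mesenchyme of later control ureters and its loss in ureters without mesenchymal *Ctnnb1*. Which cells carried the signals of *Gata2* and *Isl1* here was not tested. *Hand2*, the brightest gene of the list, had a mean of 0.31 (adjusted p 0.225 in limma), and *Sox11*, a factor of immature neurons and mesenchyme, one of -0.19.

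Of 14 genes for transmitter synthesis, transport and reception, 12 were higher and 0 lower on both arrays (median 0.31), against 28.5% and 27.5% of all genes. *Vip*, which encodes a neuropeptide of parasympathetic and enteric neurons, rose by 0.73±0.04 (SD, n = 2; 1.66-fold; adjusted p 0.0209 in limma). The other enzymes of catecholamine synthesis beside *Th* were the brightest genes of the list. *Dbh* had 0.30 and 0.13 on the arrays (adjusted p 0.452 in limma), and *Ddc* had 0.43 and 0.45 (adjusted p 0.0896 in limma). At an unadjusted p under 0.05 in limma, 9 of the 14 genes were higher and 0 lower, against 8.8% and 4.77% of all genes.

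Of 18 further pan-neuronal genes, 17 were higher and 0 lower on both arrays, against 28.5% and 27.5% of all genes. The median was 0.29 (0.35 on replicate 1 and 0.23 on replicate 2), and the means ran from 0.12 to 0.47. None passed FDR 0.05 in limma. At an unadjusted p under 0.05 in limma, 13 were higher and 0 lower, against 8.8% and 4.77% of all genes. *Tubb2b*, which encodes a beta tubulin of developing neurons, had a mean of 0.30 (adjusted p 0.279 in limma), and *Gap43*, which encodes a protein of growth cones, one of 0.26 (adjusted p 0.300 in limma). With median centring, 8 of the 18 were higher on both arrays, where 20% of all genes were.

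Of 15 neurotrophic ligands and receptors, 6 were higher and 6 lower on both arrays (median 0.01), against 28.5% and 27.5% of all genes. *Gfra2*, which encodes the receptor of neurturin, fell by 0.75 (SD 0.15, n = 2; adjusted p 0.0239 in limma). *Ntrk2*, which encodes the receptor of brain-derived neurotrophic factor, had a mean of 0.38 (adjusted p 0.138 in limma). The calls named in these lists depended on the fit. In 11 other fits, *Tfap2b*, *Insm1* and *Gata2* passed FDR 0.05 in 3, *Isl1* and *Gfra2* in 4 and *Vip* in 6.

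**Figure D4:**
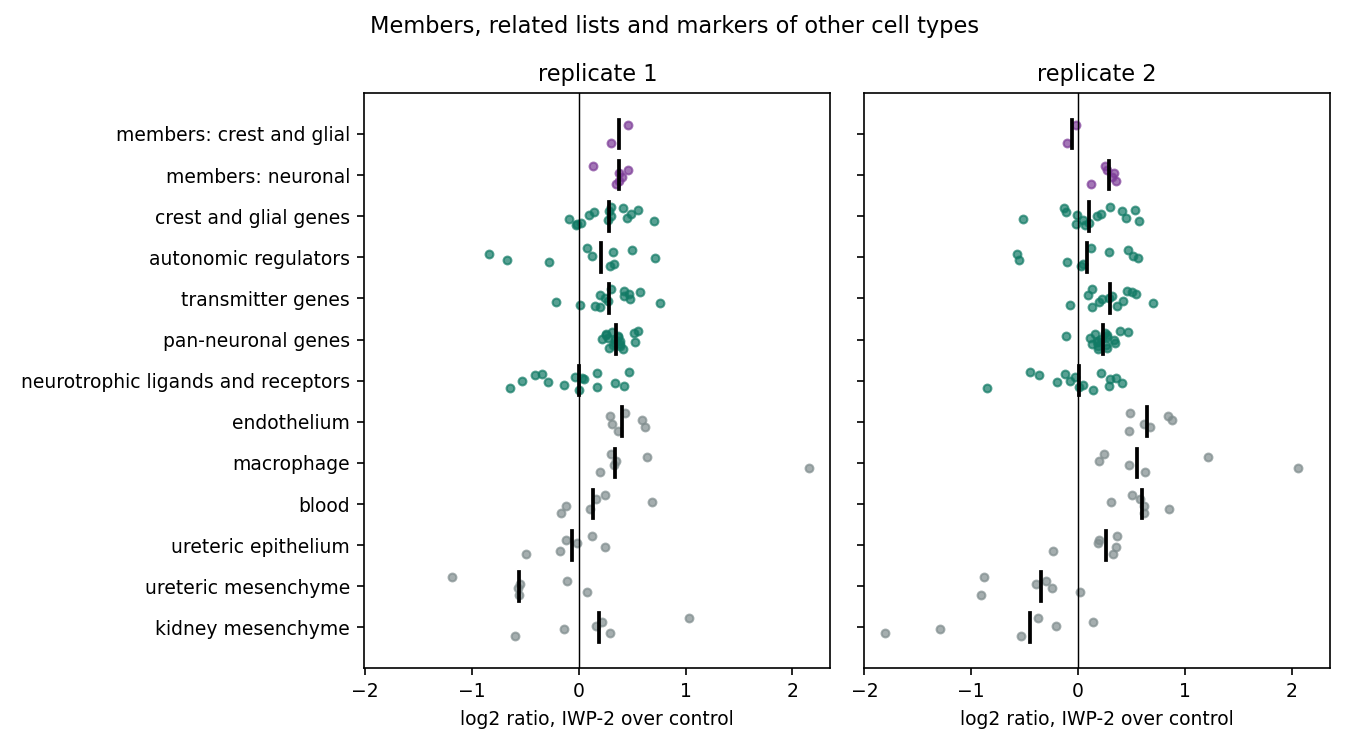
Log2 ratio of IWP-2 over control on replicate 1 (left) and replicate 2 (right) for the members (purple), the related lists (green) and marker lists of other cell types (grey). Each point is a gene and each black bar the median of the list. With loess, the bars of the neuronal members and of the transmitter and pan-neuronal genes are right of 0 on both arrays. So are those of the further crest and glial genes, the autonomic regulators, the endothelium, the macrophages and the blood. The bars of the crest and glial members and of the kidney mesenchyme lie right of 0 on replicate 1 and left of it on replicate 2.

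Markers of other cell types moved as well, and their part in the results above was not tested. The shares over all genes were 28.5% higher and 27.5% lower on both arrays. All 6 endothelial genes were higher on both arrays (median 0.52), with *Kdr* (0.74) and *Cldn5* (0.65) past FDR 0.05 in limma. Their summed intensity was 80890 and 79290 in treated and 57690 and 47220 in control ureters. All 6 macrophage genes were higher on both arrays (median 0.41), with *Marco* (2.11) and *Adgre1* (0.93) past FDR 0.05, and summed to 61330 and 56400 in treated and 47620 and 40270 in control ureters. Of 6 blood genes, 4 were higher on both arrays (median 0.13 on replicate 1 and 0.60 on replicate 2). They summed to 742700 and 479200 in treated and 568800 and 364700 in control ureters. The 18 pan-neuronal genes summed to 608100 and 568100 in treated and 479000 and 473200 in control ureters.

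Of 6 genes of the ureteric mesenchyme (UM), 5 were lower on both arrays (median -0.44), against 27.5% of all genes. *Tbx18* (-1.03) and *Bmp4* (-0.73) passed FDR 0.05 in limma. The sums of the 6 genes were 297500 and 266400 in treated and 370800 and 345700 in control ureters. Genes of the ureteric epithelium had a median of 0.06, with 2 of 6 higher and 1 lower on both arrays, and summed to 200500 and 236600 in treated and 207200 and 202600 in control ureters. Genes of the kidney mesenchyme had a median of 0.19 on replicate 1 and -0.45 on replicate 2, so that this median had the same signs as *Sox10* and *Ngfr*. The single genes varied, with 1 of 6 higher and 2 lower on both arrays, against 28.5% and 27.5% of all genes. *Osr1* (-0.56) passed FDR 0.05 among them. They summed to 90850 and 79470 in treated and 81810 and 100600 in control ureters, and their part in the disagreement of the arrays on *Sox10* and *Ngfr* was not tested.

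Neurons of other kinds, chromaffin cells and skeletal muscle were looked for by their own markers. Of 7 sensory neuron genes, *Neurog1*, *Neurog2*, *Scn10a* and *Prrxl1* were too near background to be tested. The other 3 summed to 844 and 966 in treated and 585 and 607 in control ureters, and *Pou4f1* (0.78) passed FDR 0.05 in limma. Of 6 genes of the central nervous system, *Pax6*, *Olig2* and *Neurod6* were too near background, and the other 3 summed to 448 and 937 in treated and 415 and 414 in control ureters. Of the chromaffin genes, *Pnmt*, which encodes the enzyme that makes adrenaline, was too near background. *Chgb* (0.62) passed FDR 0.05, and the 3 chromaffin genes tested, which neurons also express, summed to 41320 and 54610 in treated and 29020 and 34690 in control ureters. Of 6 skeletal muscle genes, *Myf5* and *Pax7* were too near background and *Myl1* (1.18) and *Myog* passed FDR 0.05, the latter with a signal in control ureters that was not well above background on at least 1 array. The 4 genes tested had sums of 1494 and 2151 in treated and 1365 and 1659 in control ureters. As a check of the treatment, 5 of 6 WNT target genes (*Axin2*, *Nkd1*, *Lef1*, *Sp5* and *Apcdd1*) fell at FDR 0.05 in limma, against 1.23% of all genes. The median of the list was -1.06. The calls among these marker and target genes passed in 3 to 9 of the 11 other fits.

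Promoters were examined for the core motif of the TCF/LEF factors, through which WNT signals reach genes. Windows of 250 bases before the transcript start were taken from RefSeq (GRCm38.p6) for 6 members with 9 windows in all. The letters CTTTGA, on either strand, were found in 1 of the 6 members, *Th*, and in 13.8% of all 32851 windows (15.8% of 27025 genes). The window of *Th*, at chr7:142899996-142900245 on the minus strand, is shown because it holds this motif together with TGACGTCA, the element through which cyclic AMP acts. The capitals mark both, which overlap in the letters TGA:
Th: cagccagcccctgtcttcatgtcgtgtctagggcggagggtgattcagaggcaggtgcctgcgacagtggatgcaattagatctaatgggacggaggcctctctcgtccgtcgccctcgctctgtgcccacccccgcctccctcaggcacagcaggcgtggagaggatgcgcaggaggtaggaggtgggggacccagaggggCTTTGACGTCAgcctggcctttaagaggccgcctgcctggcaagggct
The first motif begins 48 and the second 45 bases before the transcript start. The second was searched after the windows had been seen and occurs in 1.55% of all windows. These are matches of letters, and *Th* was among the neuronal members with the smaller differences, with a mean of 0.24 on the log2 scale.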

How the data were processed

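RNA of E11.5 ureter explants was hybridised to 2 two-colour arrays, each with 1 IWP-2-treated and 1 DMSO control pool. As deposited, the scanner output gives a spot intensity and a local background intensity for either dye. It was written, per the file headers, by Agilent Feature Extraction 12.2.0.7 (the submitters' processing notes name 10.7.3.1), and other deposited columns mark outliers and spots well above background. The series table as deposited by the authors holds a score, the fold change with a sign for its direction and rounded, and served as an alternative. Each array had 174979 spots, of which 157716 were not controls (39429 probes). The share of spots well above background was 68.6% to 70.7% per channel, and 0 were saturated. The number of arrays limits the precision.

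Intensities were corrected by normexp (offset 50) and log2 ratios normalized by loess within arrays in R 4.3.3 with limma 3.58.1. Outlier spots (4.51% and 3.30%) were dropped and spots averaged. A probe entered if over 0.5 of its spots were well above background on both arrays, in treated or in control RNA, and the brightest kept probe stood for a gene. For lmFit and eBayes, ratios of the swapped array were turned, and the Benjamini-Hochberg adjustment ran over all genes. Ratios are treated over control. The replicates are separate pools of ureters per the study's methods, and limma weighs the spread between 2 pairs of pools (1 residual degree of freedom) with a prior variance over all genes (5.78 degrees of freedom), which decides most of each p-value. The fold filter, modelled on the study's, used the processed intensities. In simulated data, 200 of 20119 genes were changed. Of these, 100 of 100 changed by 2 and 98 of 100 changed by 1 on the log2 scale were called, beside 21 unchanged genes among 219 calls. The simulated spread was drawn from the fitted prior. Changes as small as those of the members, with means of at most 0.37, were not simulated, so that the power to call them is not known.

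The members and lists were chosen with earlier results of these data known. The text names all members, the genes of each related list past FDR 0.05 and its 2 brightest genes, and the marker genes past FDR 0.05, except a few genes that are not reported here. All 145 list symbols were found. Sequences were searched in Python 3.11.15.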

Additional observations from a re-analysis of the deposited data

How the results depend on the processing

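With 2 arrays and 1 residual degree of freedom, the counts over all genes in limma depended strongly on the processing, and the correlation between arrays fell from 0.465 to 0.00673 with median centring. Against 153 higher and 247 lower genes at FDR 0.05, limma gave 75 higher genes with the processed signals, 76 without background correction, 290 when all kept probes of a gene were averaged, 266 with an intensity trend in the prior and 270 with a trend and a robust prior, and for these the lower genes stayed within 1.5 times. Median centring gave 6 higher and 34 lower genes, no filter on dim probes 23 and 103, and the rounded values of the series matrix gave 1038 higher and 1322 lower genes. The cause was not tested. No member passed FDR 0.05 in limma in either direction in any of these fits, where the lowest adjusted p of a member was 0.0784 (*Elavl4*), and 0 passed the fold filter under any threshold tried.

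The arrays pair a treated with a control pool. In separate-channel fits, limma gave 16 higher and 111 lower genes with the array as replicate block, 2 and 24 without this block, and 0 and 0 without it and with a dye term. Members past FDR 0.05 stayed at 0 in all of these.

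Most alternatives change the test and leave the log2 change of a member as it is. With the 4 that recompute the ratios (processed signals, median centring, no background correction and the series matrix), the mean of each member stayed above 0. Over the arrays left out in turn, the change of *Sox10* ranged from -0.0202 to 0.46 and that of *Ngfr* from -0.10 to 0.30. Leaving out 1 array, the median of the crest and glial members ranged from -0.06 to 0.38 and that of the neuronal members from 0.29 to 0.38. Counts at FDR 0.05 could not be computed from 1 array. Of the counts of genes higher on both arrays, which were compared after seeing the data, that of the pan-neuronal genes went from 17 to 8 of 18 with median centring. Those of the neuronal members (4 of 6), the transmitter genes (10 of 14) and the crest and glial list (8 of 15) moved by at most 1.5 times. The share of all genes higher on both arrays was 28.5% with loess and 20% with median centring.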
